A study of Mus musculus with 6 samples.

Results

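The genes described are the cytochrome P450 genes of families 1, 2 and 3 in mouse liver, taken by symbol from the deposited tables with pseudogenes left out. Of 50 such symbols, 45 genes had at least 60 counts summed over the 6 libraries and were kept, out of 20673 genes listed. Cyp1b1 with 88 summed counts and Cyp2g1 with 90 stood just inside that minimum, and Cyp2s1 with 32, Cyp2d12 with 17, Cyp2d34 with 12, Cyp2j8 with 9 and Cyp2t4 with 9 fell outside it. Livers of 6 C57BL/6J mice were compared, 3 fed a regular diet (RD, a control rodent feed) and 3 fed a high-cholesterol diet (HCD, which contained cocoa butter, cholesterol and sodium cholate) for 3 days. The mice, wild-type young adults from the Jackson Laboratory, had no agent besides the diet, and livers were taken at its end. The study used both sexes, and the labels give neither sex nor age per liver. Each library was made from the RNA of 1 liver, so that each diet had n = 3. The comparison of HCD with RD asks which of these enzymes changed in RNA level after a short cholesterol-rich diet.

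Cytochrome P450 enzymes are haem proteins of the endoplasmic reticulum that insert an oxygen atom into their substrates, with electrons delivered by the reductase Por and, for some reactions, by cytochrome b5. Members of families 1 to 3 oxidise drugs, plant compounds, steroids, fatty acids and bile acids, and most are made chiefly by hepatocytes. Family 1 genes are classical targets of the aryl hydrocarbon receptor AhR. Many genes of the Cyp2b, Cyp2c and Cyp3a subfamilies are targets of the nuclear receptors CAR (gene Nr1i3) and PXR (gene Nr1i2), which bind drugs, steroids and bile acids. In mouse liver, several members are also made at different levels in females and males, under the control of growth hormone, and several are made mainly by the hepatocytes around the central vein.

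Depth ranged from 13771630 to 23129576 counts in the RD libraries, and from 13935491 to 18545549 in the HCD ones. A count of 0 allowed up to 0.130 CPM (counts scaled to library size) in the deepest library and 0.218 in the shallowest, which covers counting error only. One library stood apart. HCD replicate 1 was the only library with RNA of Xist, the X-inactivation RNA of female cells, at 5032 counts, and it had 0 counts of the Y-linked genes Ddx3y, Uty, Kdm5d and Eif2s3y, which all other libraries contained. Of 11 listed genes outside families 1 to 3 that are male-biased in mouse liver, all 11 were lowest in this library, and their summed FPKM was 77.0 there and 5421 to 8876 in the other 5. Of 10 listed female-biased genes outside these families, 9 were highest in it, with a summed FPKM of 3176 against 3.69 to 34.4. By diet, edgeR called 0 of the 11 male-biased genes (median log2 fold change -1.05, or -0.46 without this library) and 0 of the 2 female-biased genes tested. By unadjusted p 1 was lower and 1 higher, DESeq2 called 0, and without this library edgeR called Cyp7b1 lower (adjusted p = 0.0398), a gene named after its values were seen. FPKM, counts scaled to both gene length and library size, is a level that can be compared between genes. Since the library belongs to the HCD group, the main results are given with and without it. The hepatocyte genes Alb and Apoa1 were abundant in all libraries, and the summed FPKM of 6 hepatocyte genes was 59737 to 83416 with RD and 65347 to 94264 with HCD. For other cell types, it was 71.0 to 125 with RD and 111 to 242 with HCD for 8 Kupffer cell genes, 38.2 to 71.9 and 48.2 to 80.7 for 8 sinusoidal endothelial genes, 127 to 161 and 138 to 261 for 9 stellate cell genes, and 28.7 to 73.8 and 52.9 to 78.6 for 6 cholangiocyte genes. No listed marker was at 0 in all 6 livers. In the test described below, edgeR called 1 gene of these 5 marker lists, Cd68, a lysosomal protein of macrophages (log2 fold change 1.24, edgeR's adjusted p = 0.0277, and 0.0510 without HCD replicate 1). By unadjusted p, 4 of the 8 Kupffer cell genes, 1 stellate cell gene and 1 hepatocyte gene were higher and 1 hepatocyte gene lower. DESeq2 called 5 of the listed genes, 3 Kupffer cell genes higher (Clec4f, Cd5l and Cd68) and 1 hepatocyte gene in each direction (Ttr and Fgb, named after their values were seen). The median log2 fold change, with HCD replicate 1 and then without it, was 0.91 and 0.62 over the Kupffer cell genes, 0.60 and 0.46 over the cholangiocyte genes tested, 0.49 and 0.23 over the stellate, 0.24 and -0.0041 over the endothelial, and -0.24 and -0.10 over the hepatocyte genes. The part of other cell types in the results that follow was not tested.

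Upstream sequence is shown for 4 of the genes called below and for Cyp2a4, to show how alike related genes of a cluster are before their start sites. Of the 45 genes, 40 have a start site in the RefSeq table of GRCm38.p6 promoters. Cyp2a4 and Cyp2a5, steroid and coumarin hydroxylase genes of chromosome 7, are nearly identical before their start sites. The 250 bases before the start of Cyp2a4 (chr7:26306942-26307191 on the plus strand) and of Cyp2a5 (chr7:26835089-26835338 on the plus strand) align over 249 columns, of which 245 are identical (98.4%), and the 4 that differ are in capitals.
Cyp2a4: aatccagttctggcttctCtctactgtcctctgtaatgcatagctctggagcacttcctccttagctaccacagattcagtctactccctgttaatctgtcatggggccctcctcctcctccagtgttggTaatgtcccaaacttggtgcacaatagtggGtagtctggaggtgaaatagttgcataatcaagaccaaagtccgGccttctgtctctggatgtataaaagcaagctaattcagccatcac
Cyp2a5: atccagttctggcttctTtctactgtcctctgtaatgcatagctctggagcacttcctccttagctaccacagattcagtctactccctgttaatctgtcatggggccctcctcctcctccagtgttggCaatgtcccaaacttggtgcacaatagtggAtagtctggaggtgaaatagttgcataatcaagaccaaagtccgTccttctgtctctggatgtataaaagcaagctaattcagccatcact
Cyp3a11, Cyp3a25 and Cyp3a59 lie in the Cyp3a cluster of chromosome 5, and their 250 bases are at chr5:145879855-145880104 on the minus strand, chr5:146009619-146009868 on the minus strand (the first start listed) and chr5:146079008-146079257 on the plus strand. Capitals mark AGGTCA, the half-site of many nuclear receptors, or TGAACT, the half-site of the element through which PXR acts on some CYP3A genes, on either strand.
Cyp3a11: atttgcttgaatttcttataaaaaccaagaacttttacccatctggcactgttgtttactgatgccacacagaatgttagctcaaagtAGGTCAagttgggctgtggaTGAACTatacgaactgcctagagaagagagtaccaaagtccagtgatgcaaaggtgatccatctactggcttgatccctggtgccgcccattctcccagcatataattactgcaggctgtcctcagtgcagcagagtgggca
Cyp3a25: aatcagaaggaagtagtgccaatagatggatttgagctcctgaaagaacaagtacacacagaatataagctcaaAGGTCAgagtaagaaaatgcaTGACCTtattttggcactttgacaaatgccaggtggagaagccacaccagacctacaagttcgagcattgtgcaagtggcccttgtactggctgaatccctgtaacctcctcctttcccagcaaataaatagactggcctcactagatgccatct
Cyp3a59: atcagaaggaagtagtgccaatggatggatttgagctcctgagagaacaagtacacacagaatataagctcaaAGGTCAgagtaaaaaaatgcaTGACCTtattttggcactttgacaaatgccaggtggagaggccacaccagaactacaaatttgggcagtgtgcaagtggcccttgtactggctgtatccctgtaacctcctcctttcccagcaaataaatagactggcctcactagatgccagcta
Cyp3a25 and Cyp3a59 were 95.6% identical over this window, whereas Cyp3a11 shared 54.2% with Cyp3a25 and 55.1% with Cyp3a59. In Cyp3a11 the AGGTCA began 162 bases before the start and TGAACT 142 bases before it. In Cyp3a25, 2 copies of AGGTCA faced each other, beginning 176 and 155 bases before the start, and in Cyp3a59 the same pair began 177 and 156 bases before it. AGGTCA was found in 11 of the 40 promoters searched and in 13.8% of all 27025 promoters of the table, and TGAACT in 6 of 40 and 11.9% of all. GCGTG, the core of the element bound by AhR, was found in 5 of 40 and 28.2% of all, with Cyp1a1 and Cyp1b1 among the 5. TATAAA, the TATA box, was found in 23 of 40 and in 3504 of the 27025. Both strands were searched for each, the motifs do not overlap each other, and a match in this window is a description of letters, not of binding.

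Read assignment depends on the transcripts rather than on this upstream sequence. Transcripts of 26 of the 45 genes share at least 200 bases at 95% identity or more with another gene, so that their counts could be split or exchanged between copies, and 19 do not. Cyp2a4 and Cyp2a5 transcripts were 98.2% identical over 1739 bases, Cyp3a25 and Cyp3a59 97.0% over 1991, Cyp2a12 and Cyp2a22 95.4% over 3462, and Cyp3a41a and Cyp3a41b 99.7% over 2064. Cyp2c40, Cyp2c67, Cyp2c68 and Cyp2c69 share such stretches with one another, as do Cyp2c37, Cyp2c50 and Cyp2c54, and Cyp2d9, Cyp2d10 and Cyp2d11. Cyp2d26 shares a shorter stretch of 239 bases at 95.4% with Cyp2d10, and Cyp2b10 one of 336 bases at 96.1% with Cyp2b13. Cyp3a11, Cyp2c29, Cyp2e1 and Cyp2f2 share none. The values of the genes that share sequence are uncertain to that extent.

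Levels within the families spanned more than 4 orders of magnitude. Cyp2e1, the ethanol-inducible P450, had the highest mean FPKM over the 6 livers, at 3527, and alone made up 25.5% of the sum over the 45 genes. Cyp3a11, a major steroid and drug hydroxylase, followed at 1225, then Cyp2d26 at 1022 and Cyp2c29, a retinoid and drug hydroxylase, at 879.9. Cyp2d10 at 868 and Cyp2f2, the naphthalene-oxidising enzyme, at 840.4 stood next. With RD, Cyp2f2 at 993 ± 98.7 FPKM (SD, n = 3), Cyp2d9 at 861 ± 300.4, Cyp3a11 at 786 ± 180 and Cyp2d10 at 771 ± 81.9 followed one another in an order in which each overlapped its neighbour in single livers, though Cyp2f2 lay above Cyp2d10 in every RD liver. Cyp2e1 lay above all 4 at 3283 ± 1274. The lowest levels were those of Cyp1b1 at 0.236 and Cyp2g1 at 0.549. Cyp1a1, which is induced through AhR, was at 0.818, against 517 for its neighbour Cyp1a2, the constitutive enzyme of hepatocytes.

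Summed over each subfamily, Cyp3a, Cyp2a and Cyp2b were higher in every HCD liver than in any RD liver, with and without HCD replicate 1. The summed FPKM of Cyp3a was 1138, 1055 and 1506 in the RD livers and 2578, 2483 and 2599 in the HCD livers, which lay close together. The means were 1233 ± 240.2 and 2553 ± 61.6 (SD, n = 3), a ratio of 2.07, and the ratio was 2.06 without HCD replicate 1. No test was run on such sums. Cyp2a sums were 399, 362 and 424 FPKM with RD and 1594, 561 and 834 with HCD, a ratio of 2.52, or 1.77 without HCD replicate 1. HCD replicate 1 was the highest of them.

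**Figure D1:**
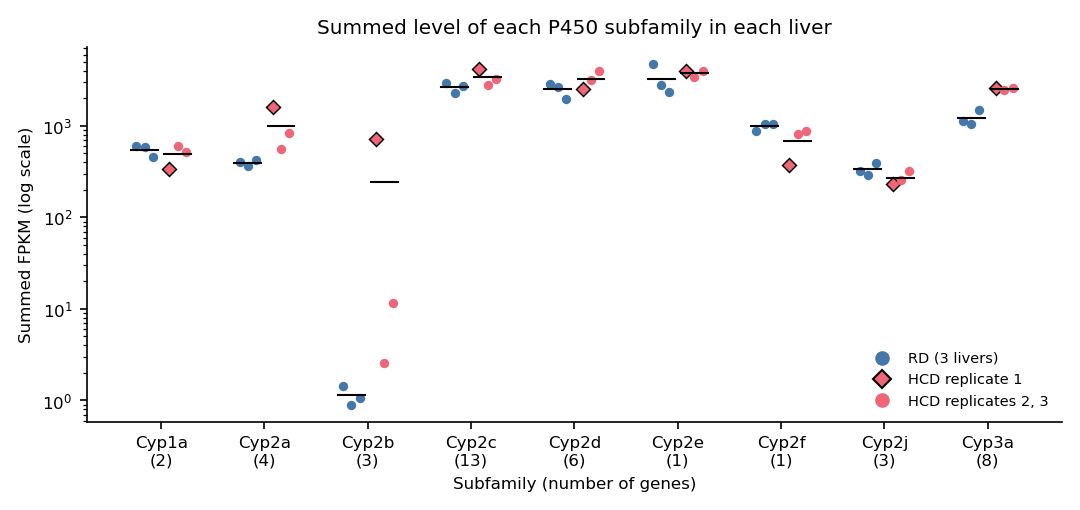
Summed FPKM (log axis) of each P450 subfamily in each of the 6 livers, with the number of genes in parentheses; blue circles are RD livers, the diamond is HCD replicate 1 and orange circles are HCD replicates 2 and 3. The Cyp3a sums of the HCD livers lie together at 2483 to 2599, above the RD livers, whereas the Cyp2b sum of HCD replicate 1 is 721 and those of the other 5 livers are 0.9002 to 11.6.

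Cyp2b, the lowest of the 3, had sums of 0.9002 to 1.46 FPKM with RD and 721, 2.55 and 11.6 with HCD, so that HCD replicate 1 set the mean. The log2 ratio of 7.74 became 2.62 without it, a ratio of 6.17 between low levels. The sums of Cyp2d, Cyp2c, Cyp2e, Cyp1a and Cyp2j overlapped between the diets. Cyp2d sums averaged 2501 ± 473 with RD and 3212 ± 709 with HCD, with a log2 ratio of 0.36; without HCD replicate 1, which had the lowest HCD value, the HCD livers stood above RD at a log2 ratio of 0.50. Cyp2c sums averaged 2649 ± 344 and 3410 ± 697 and overlapped (log2 ratio 0.36, or 0.19 without HCD replicate 1). Cyp2e, a subfamily of Cyp2e1 alone, averaged 3283 ± 1274 and 3771 ± 340 with overlap (log2 ratio 0.20, or 0.16 without HCD replicate 1). Cyp1a sums averaged 549 ± 74.9 and 488 ± 140.0, overlapped, and changed the sign of their log2 ratio from -0.17 to 0.041 without HCD replicate 1. Cyp2j sums averaged 335 ± 50.5 with RD and 270 ± 43.5 with HCD and overlapped (log2 ratio -0.31, and -0.22 without HCD replicate 1). Over all 45 genes the sum averaged 11962 ± 1668 FPKM with RD and 15655 ± 1351 with HCD, a ratio of 1.31, and 1.27 without HCD replicate 1. Cyp3a made up 10.3% of that sum with RD and 16.3% with HCD, and Cyp2e1 27.4% and 24.1%.

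Gene by gene, 37 of the 45 were tested with edgeR's quasi-likelihood test on the counts, with p-values adjusted by Benjamini-Hochberg over all 13105 genes tested, and the other 8 had too few counts in most livers. Diet differences are given as log2 fold changes of HCD over RD on the CPM scale. At an adjusted p under 0.05, 5 members were higher with HCD (Cyp2a5, Cyp2d26, Cyp3a11, Cyp3a25 and Cyp3a59), where 1.95% of all genes tested were called higher, and 0 were lower, where 1.32% were. This is 13.5% of the 37, against 3.27% of all genes in either direction. By unadjusted p, with the limit of 0.05 kept, 10 stood higher and 2 lower (11.1% and 9.81% of all genes), and DESeq2 called 7 higher and 1 lower of 35 given an adjusted p (4.01% and 3.19% of all genes), adding Cyp2b10 and Cyp2c29 above and Cyp2c67 below. The median log2 fold change of the 37 was 0.37, and that of all genes 0.0074. Of the 37, 25 had a value above 0 and 12 below. The 3 HCD livers stood above all RD livers in 10 of the 37 (27.0%, against 14.0% of all genes) and below them in 2 (5.41%, against 13.7%). RNA of bulk liver was measured, so that fewer cells of a type and less RNA per cell cannot be told apart.

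Without HCD replicate 1, edgeR called 3 members higher (Cyp2a5, Cyp3a11 and Cyp3a25; 1.51% of all genes) and 0 lower (1.02%; 2.53% in either direction), and the median was 0.23. The calls also rested on the RD livers: leaving out RD replicate 1 or RD replicate 2 left 0 members called higher, when the calls over all genes fell from 428 to 36 and 51, and leaving out HCD replicate 3 left 1, when they fell to 103. The direction of all 5 stayed above 0 in each of these fits.

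**Figure D2:**
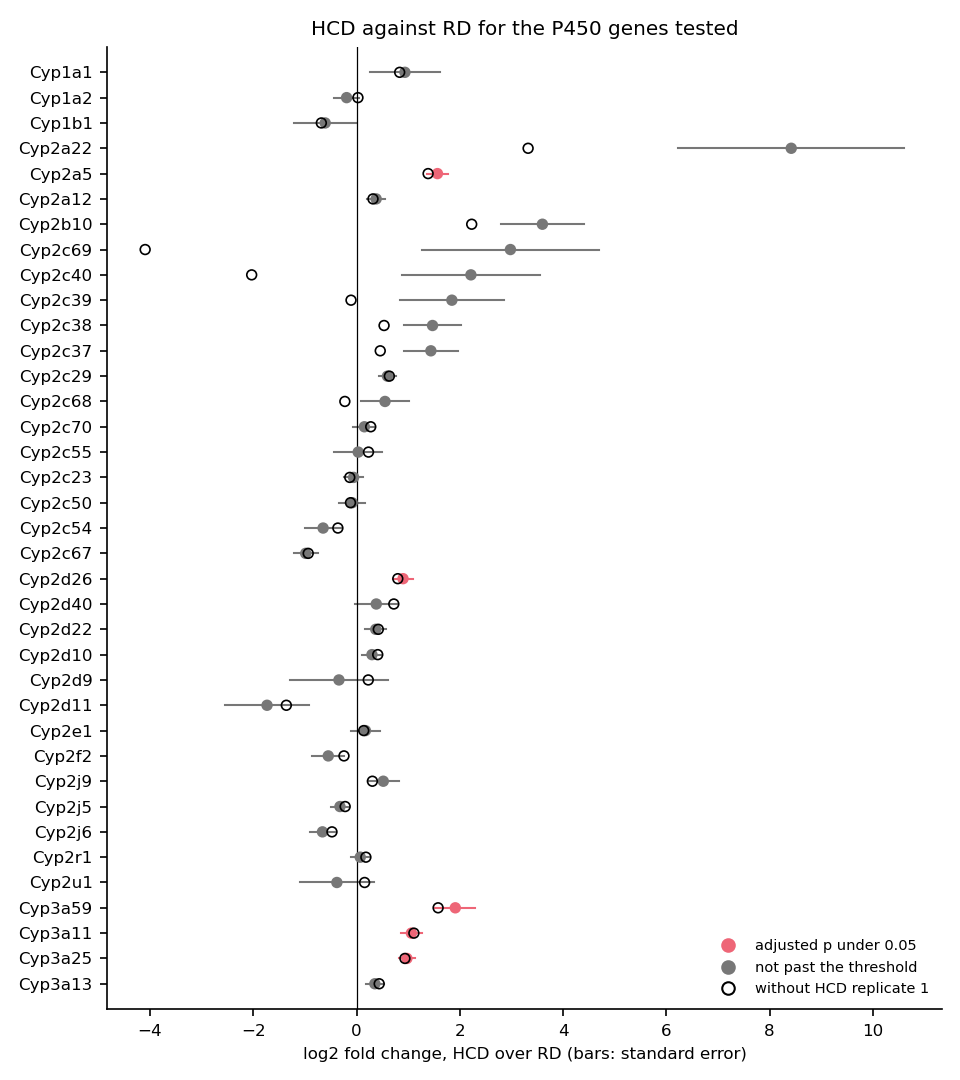
log2 fold change of HCD over RD, with standard errors, for the 37 P450 genes tested in 3 RD and 3 HCD livers; filled orange points passed an adjusted p under 0.05, grey points did not, and open circles are the values without HCD replicate 1. Cyp2a5, Cyp3a11 and Cyp3a25 keep nearly the same position without that liver, whereas Cyp2c69 moves from 2.98 to -4.09 and Cyp2c40 from 2.22 to -2.03.

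In the Cyp3a subfamily, 3 of 4 members tested were called higher. Cyp3a11 had 2574, 2265 and 3360.2 CPM in the RD livers and 5324, 5968 and 5842 in the HCD livers. The diets did not overlap, and HCD replicate 1 was the lowest of its group. Cyp3a11 rose from 2733 ± 565 to 5711 ± 341 CPM, a log2 fold change of 1.06 (standard error 0.20) with an adjusted p = 0.0329, and it was 1.11 without HCD replicate 1 (edgeR's adjusted p = 0.0344). Cyp3a25, another liver Cyp3a enzyme, had 435, 461 and 539 CPM with RD and 989.7, 917 and 917 with HCD. The HCD livers lay close together and apart from RD. The log2 fold change of Cyp3a25 was 0.98 (standard error 0.15, edgeR's adjusted p = 0.0203), and 0.94 without HCD replicate 1 (adjusted p = 0.0262).

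Cyp3a59, whose transcript is nearly that of Cyp3a25, had 22.6, 15.98 and 43.5 CPM with RD and 145, 72.4 and 92.0 with HCD. HCD replicate 1 was highest and RD replicate 3 the highest of the RD livers. Cyp3a59 rose by a log2 fold change of 1.91 (standard error 0.38, edgeR's adjusted p = 0.0382), and the value was 1.58 without HCD replicate 1, where it did not pass (adjusted p = 0.0656). Cyp3a13, which is expressed in intestine as well as liver, did not pass, at 183 ± 16.2 CPM with RD and 234 ± 51.6 with HCD (log2 fold change 0.36, 95% interval -0.054 to 0.76, edgeR's adjusted p = 0.300; 0.44 without HCD replicate 1), although the diets did not overlap. Leaving out RD replicate 1 or RD replicate 2 raised the adjusted p of Cyp3a11 to 0.153 and 0.143, that of Cyp3a25 to 0.128 and 0.119, and that of Cyp3a59 to 0.161 and 0.136. Leaving out HCD replicate 3 gave 0.0800, 0.0543 and 0.0948, and Cyp3a11 also missed the threshold without HCD replicate 2 (0.0600). The 4 remaining Cyp3a genes, Cyp3a16, Cyp3a41a, Cyp3a41b and Cyp3a44, were not tested and are described with the sex-biased genes.

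**Figure D3:**
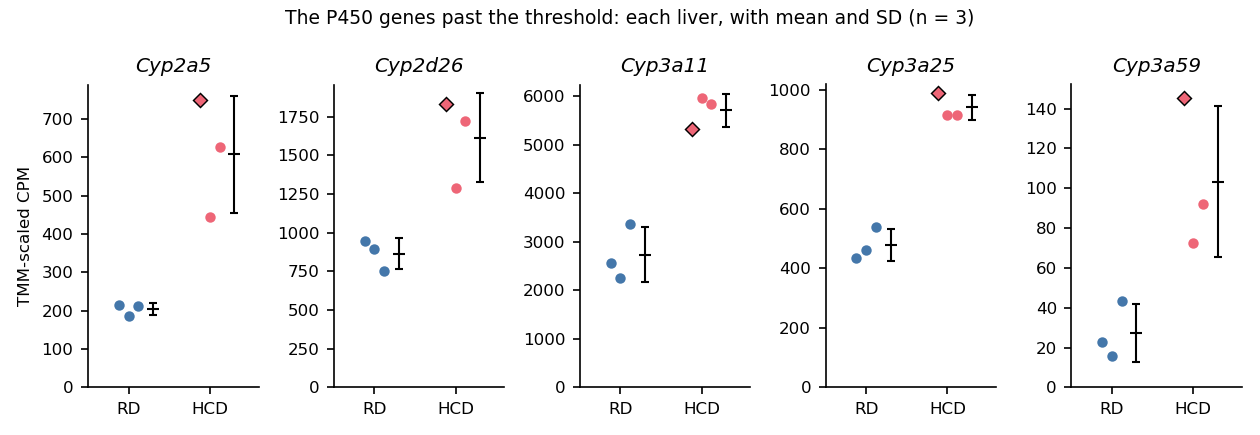
TMM-scaled CPM (linear axes from 0) of the 5 P450 genes past the threshold, 1 point per liver, with the mean and SD of each diet (n = 3); diamonds are HCD replicate 1. In all 5 genes the HCD livers lie above the RD livers, and HCD replicate 1 is the highest of them except in Cyp3a11, where it is the lowest of the HCD livers.

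In the Cyp2a subfamily, Cyp2a5, the coumarin 7-hydroxylase, had the smallest adjusted p of the 37 genes. It had 215, 187 and 212 CPM in the RD livers and 750.0, 445 and 627 in the HCD livers. Every HCD liver was above every RD liver, with HCD replicate 1 highest. Cyp2a5 rose from 205 ± 15.4 to 607 ± 154 CPM, a log2 fold change of 1.57 (standard error 0.21) with an adjusted p = 0.0124. It was 1.39 without HCD replicate 1 (edgeR's adjusted p = 0.0136), and its adjusted p was 0.0696 without RD replicate 1 and 0.0727 without RD replicate 2. Its near copy Cyp2a4, a testosterone 15-alpha-hydroxylase, was not tested. Cyp2a4 had 1, 0 and 130 counts with RD and 12999, 7 and 2 with HCD, so that it was abundant in HCD replicate 1 alone, while Cyp2a5 stood above all RD livers also in HCD replicates 2 and 3, where Cyp2a4 was near 0. Cyp2a12, a steroid 7-alpha-hydroxylase, averaged 588 ± 27.7 and 766 ± 148 CPM and overlapped between the diets (log2 fold change 0.38, 95% interval -0.031 to 0.79, edgeR's adjusted p = 0.272, and 0.32 without HCD replicate 1). Cyp2a22, which shares long stretches with Cyp2a12, had 2, 6 and 7 counts with RD and 5289, 17 and 53 with HCD. Its fitted log2 fold change of 8.42 (edgeR's adjusted p = 0.0788) fell to 3.32 (adjusted p = 0.0824) without HCD replicate 1, and neither passed, whereas it passed without HCD replicate 2 (adjusted p = 0.0455).

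In the Cyp2d subfamily, 1 of 6 members was called. Cyp2d26 had 944, 897 and 753 CPM with RD and 1832, 1291 and 1720.2 with HCD. The diets were apart, with HCD replicate 2 the lowest of its group. Cyp2d26 rose by a log2 fold change of 0.90 (standard error 0.19, edgeR's adjusted p = 0.0453), close to the threshold, and it did not pass without HCD replicate 1 (0.80, adjusted p = 0.0644), nor without any RD liver (adjusted p 0.117 to 0.169) or HCD replicate 3 (0.112). Cyp2d10 averaged 871 ± 109 and 1072 ± 217 CPM and overlapped (log2 fold change 0.30, 95% interval -0.15 to 0.74, edgeR's adjusted p = 0.419, and 0.41 without HCD replicate 1). The log2 fold changes of Cyp2d22, Cyp2d40 and Cyp2d11 were 0.37, 0.38 and -1.73, and none passed (adjusted p 0.332, 0.631 and 0.264). Without HCD replicate 1, Cyp2d40 had 0.72 (edgeR's adjusted p = 0.232) and the HCD livers stood above RD.

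Cyp2b10, the classical CAR target gene, was low in all RD livers, at 2.11, 1.33 and 1.52 CPM, and had 44.7, 3.72 and 11.996 CPM in the HCD livers. All 3 HCD livers were above RD, and they differed from each other by more than 10 times. The log2 fold change of Cyp2b10 was 3.60 (95% interval 1.76 to 5.44) and just missed the threshold (edgeR's adjusted p = 0.0522). Without HCD replicate 1 it was 2.23 (adjusted p = 0.0686), and DESeq2 gave an adjusted p = 0.00504. It passed in edgeR without HCD replicate 2 (adjusted p = 0.0243). Females of many mouse strains make more Cyp2b10 than males, and the part of sex in HCD replicate 1 cannot be told apart from that of the diet. Cyp2b10 also shares 336 transcript bases at 96.1% identity with Cyp2b13, which had 8149 counts in HCD replicate 1 and 0 in every other liver. Whether reads were exchanged between them was not tested.

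In Cyp2c, the subfamily with most members, edgeR called 0 of 13 in either direction, against 3 higher and 1 lower by unadjusted p and 1 higher and 1 lower with DESeq2. Cyp2c29 came nearest among those higher with HCD. It had 1627, 1317 and 1413 CPM with RD and 2084, 2257 and 2258 with HCD, with no overlap and with HCD replicate 1 lowest of its group. Its log2 fold change was 0.60 (95% interval 0.23 to 0.97, edgeR's adjusted p = 0.0896), and 0.64 without HCD replicate 1 (adjusted p = 0.0784). Cyp2c67 lay on the other side, with 283, 227 and 326 CPM with RD and 131, 185 and 106 with HCD. The diets were apart in each liver. The Cyp2c67 log2 fold change was -0.98 (95% interval -1.51 to -0.46, edgeR's adjusted p = 0.0564), and -0.94 without HCD replicate 1 (adjusted p = 0.106). It passed without HCD replicate 2 (-1.24, adjusted p = 0.0369).

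Cyp2c37, which oxidises arachidonic acid, had 287, 267 and 189 CPM with RD and 1334, 293 and 388 with HCD. Although no HCD liver reached down to RD, most of the difference came from HCD replicate 1, and the log2 fold change of 1.44 (edgeR's adjusted p = 0.167) was 0.46 without it (adjusted p = 0.278). Cyp2c54, a close copy, had 296, 194 and 159 CPM with RD and 77.7, 135 and 203 with HCD, and overlapped (log2 fold change -0.65, 95% interval -1.44 to 0.15, edgeR's adjusted p = 0.332, and -0.36 without HCD replicate 1). Cyp2c70, which makes muricholic acids, the bile acids typical of mice, averaged 762 ± 167 and 847 ± 133 CPM and overlapped. Its log2 fold change was 0.15 (95% interval -0.33 to 0.64, edgeR's adjusted p = 0.725, and 0.28 without HCD replicate 1). Of Cyp2c23, Cyp2c50, Cyp2c55 and Cyp2c68, none passed, with log2 fold changes of -0.057, -0.085, 0.033 and 0.55, and without HCD replicate 1 Cyp2c23, Cyp2c55 and Cyp2c68 had -0.13, 0.23 and -0.23.

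The Cyp1a, Cyp1b, Cyp2e, Cyp2f, Cyp2j, Cyp2r and Cyp2u genes showed no call in edgeR, with 0 higher and 1 lower (Cyp2j6) by unadjusted p and 0 with DESeq2. Cyp1a2 had 826, 821 and 622 CPM with RD and 445, 847 and 695 with HCD. Only HCD replicate 1 lay below the RD livers, and the log2 fold change of -0.19 (95% interval -0.75 to 0.37, edgeR's adjusted p = 0.701) was 0.028 without it. Cyp1a1 was low throughout, at 1.05 ± 0.483 CPM with RD and 2.02 ± 1.36 with HCD (log2 fold change 0.94, 95% interval -0.60 to 2.47, edgeR's adjusted p = 0.462). Cyp1b1 was lower still, at 13 to 23 counts in the RD livers and 4 to 14 in the HCD livers. Of 4 tested target genes of AhR outside the P450 genes, edgeR called 0, against 1 higher and 1 lower by unadjusted p and 1 higher with DESeq2, Nqo1, a quinone reductase (log2 fold change 1.67, edgeR's adjusted p = 0.0639), which passed in edgeR in 1 of the 6 fits that left out a liver. The other abundant gene of that list, Ugt1a6b, a glucuronosyltransferase, had -0.39 (edgeR's adjusted p = 0.126), and the median was -0.18, or -0.32 without HCD replicate 1.

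Cyp2e1 had 7022, 4168 and 3384 CPM with RD and 5720, 5044 and 5665 with HCD. RD replicate 1 was highest of the 6 and the other RD livers lowest, and the log2 fold change was 0.17 (95% interval -0.46 to 0.80, edgeR's adjusted p = 0.761, and 0.14 without HCD replicate 1). Cyp2f2 had 1224, 1469 and 1435 CPM with RD and 499, 1152 and 1174 with HCD. All HCD livers were below RD, with HCD replicate 1 lowest. The log2 fold change of Cyp2f2 was -0.55 (95% interval -1.24 to 0.15, edgeR's adjusted p = 0.348), and -0.24 without HCD replicate 1. Cyp2j5, an arachidonic acid epoxygenase of liver and kidney, averaged 492 ± 61.3 and 394 ± 61.5 CPM (log2 fold change -0.32, 95% interval -0.71 to 0.074, edgeR's adjusted p = 0.333), and Cyp2j6 62.8 ± 14.3 and 39.9 ± 11.2 (-0.66, -1.20 to -0.12, adjusted p = 0.167). Both overlapped between the diets, and without HCD replicate 1 their log2 fold changes were -0.22 and -0.47. Cyp2j9 had a log2 fold change of 0.52 and Cyp2r1, a vitamin D 25-hydroxylase, 0.073, and neither passed (0.31 and 0.18 without HCD replicate 1). Cyp2u1, a long-chain fatty acid hydroxylase, had 38.5, 67.3 and 34.6 CPM with RD and 4.09, 61.8 and 42.1 with HCD. The low value of HCD replicate 1 gave a log2 fold change of -0.38 (edgeR's adjusted p = 0.803), which was 0.16 without it.

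HCD replicate 1 was the extreme library for most of these genes. Its CPM lay above the other 5 livers in 13 of the 37 tested genes (35.1%, against 19.4% of all genes) and below them in 9 (24.3%, against 19.3%). All 8 genes not tested were highest in it too. Except for Cyp2a4, these 8 reached the minimum of summed counts only through its counts. Their place was thus largely set by selection and says little about HCD replicate 1. The sign of the log2 fold change turned without it in 7 (Cyp1a2, Cyp2c39, Cyp2c40, Cyp2c68, Cyp2c69, Cyp2d9 and Cyp2u1), and the value moved by over 1 in 5 (Cyp2a22, Cyp2b10, Cyp2c39, Cyp2c40 and Cyp2c69).

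All 13 members listed as female-biased in mouse liver were highest in HCD replicate 1. For Cyp2b9, Cyp2b13, Cyp2g1, Cyp3a16, Cyp3a41a, Cyp3a41b and Cyp3a44 this was largely set by selection. They reached the minimum of summed counts only with that library. The remaining members, Cyp2a4, Cyp2b10, Cyp2c38, Cyp2c39, Cyp2c40 and Cyp2c69, reached it without that library. Of all genes tested, 19.4% were highest in HCD replicate 1. Cyp2b13 had 8149 counts there and 0 in each other liver. Cyp2b9 had 8805 there, 47 in HCD replicate 3 and 0 in the other 4. Cyp3a41a had 264 there and 0 elsewhere, and its near copy Cyp3a41b 290 there and 0 or 1 elsewhere. Cyp2b13 and both Cyp3a41 genes were thus at or under the counting floor of 3 counts in the other 5 livers. Cyp3a44 had 657 counts there and 0 to 3 elsewhere, Cyp3a16 had 566 and 1 to 9, and Cyp2g1, a P450 known mainly from olfactory tissue, had 54 and 0 to 17. Summed over the list, the level was 1668 FPKM in HCD replicate 1, 14.8 and 36.4 in the other HCD livers, and 18.6, 19.7 and 44.0 with RD. Of 5 list members tested, edgeR called 0 (2 higher by unadjusted p, and with DESeq2 1, Cyp2b10), and their median log2 fold change was 2.22 with HCD replicate 1 and -0.11 without it.

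Within the list, Cyp2c40 and Cyp2c69 differed in direction between HCD replicate 1 and the others. Cyp2c40 had 6.73, 8.16 and 20.1 CPM with RD and 157, 3.65 and 2.03 with HCD, and Cyp2c69 had 2.88, 3.07 and 12.9 with RD and 149.9, 0.620 and 0.0811 with HCD. HCD replicates 2 and 3 were below all RD livers in both. With all 6 livers, the log2 fold changes were 2.22 and 2.98 (edgeR's adjusted p 0.381 and 0.363), and without HCD replicate 1 they were -2.03 and -4.09 (0.0960 and 0.0792), so that none passed. Cyp2c38 had 104 CPM in HCD replicate 1 and 15.99 to 40.2 in the remaining livers (log2 fold change 1.47, edgeR's adjusted p = 0.178). Its value was 0.53 without HCD replicate 1, and it passed without HCD replicate 2 (1.899, adjusted p = 0.0474). Cyp2c39 had 6.98 CPM in HCD replicate 1 and 0.276 to 1.39 elsewhere. Cyp2d9, a male-specific steroid 16-alpha-hydroxylase, went the other way. It had 43.6 CPM in HCD replicate 1 and 931 to 2009.5 in the other livers, and its log2 fold change was -0.34 (edgeR's adjusted p = 0.870) with that liver and 0.23 without it. In that liver, sex and diet cannot be told apart.

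**Figure D4:**
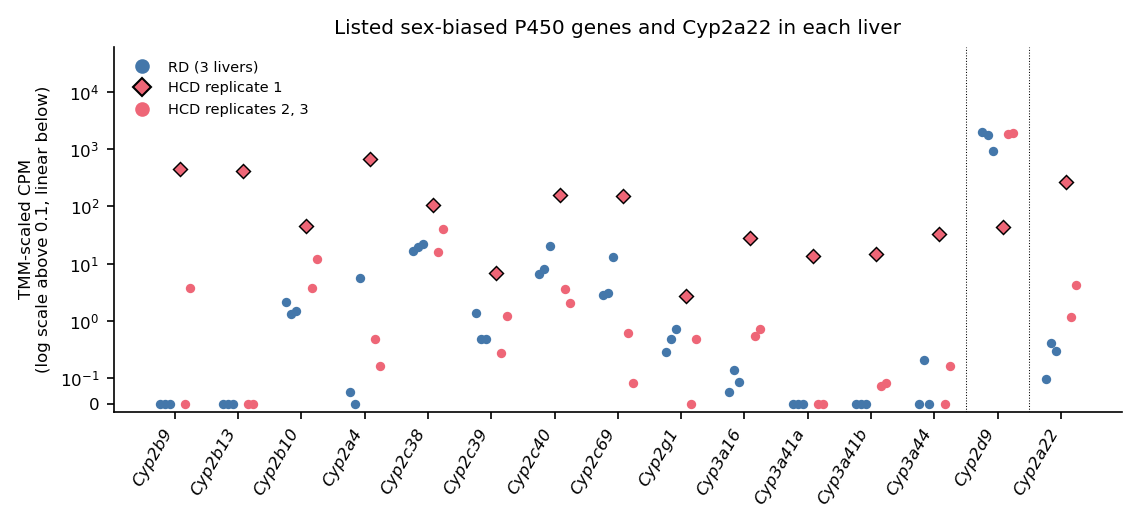
TMM-scaled CPM (log axis above 0.1, linear below) of the 13 listed female-biased P450 genes, then Cyp2d9 and Cyp2a22, in each liver; blue circles are RD livers, the diamond is HCD replicate 1 and orange circles are HCD replicates 2 and 3. HCD replicate 1 lies above the other 5 livers in all 13 and in Cyp2a22, and below them in Cyp2d9.

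By position in the liver lobule, 6 of the members are known from hepatocytes around the central vein (Cyp1a2, Cyp2a5, Cyp2c29, Cyp2c37, Cyp2e1 and Cyp3a11) and 1, Cyp2f2, from those around the portal vein. Of the 6, edgeR called 2 higher (Cyp2a5 and Cyp3a11) and 0 lower, against 1.95% and 1.32% of all genes. By unadjusted p 4 were higher and 0 lower (11.1% and 9.81% of all genes). DESeq2 called 3 higher (adding Cyp2c29) and 0 lower (4.01% and 3.19% of all genes). The median log2 fold change of the 6 was 0.83, or 0.55 without HCD replicate 1. Cyp2c37, higher by unadjusted p, fell from 1.44 to 0.46 without that liver. Other pericentral genes were counted beside them. Of 10 pericentral genes outside families 1 to 3, edgeR called 0 (1 higher by unadjusted p, 0 with DESeq2), with a median of -0.22, or -0.46 without HCD replicate 1, and their summed FPKM was 1016 to 1375 with RD and 841 to 1178 with HCD. The most abundant, Glul, the glutamine synthetase of the innermost pericentral layer, had a log2 fold change of -0.14 (edgeR's adjusted p = 0.784), and Oat, ornithine aminotransferase, one of -0.47 (adjusted p = 0.463). Of 9 periportal genes, 1 was called higher, Hsd17b13, a lipid droplet enzyme (log2 fold change 0.79, edgeR's adjusted p = 0.0400), which kept its call in 1 of 6 fits that left out a liver. By unadjusted p and with DESeq2 it was the 1 call too, and the median of the 9 was 0.12, or 0.096 without HCD replicate 1. Pck1 and Ass1, the most abundant, had 0.21 and 0.12.

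Among 20 regulators of P450 genes, of which 18 were tested, edgeR and DESeq2 each called 1 higher and 1 lower, and by unadjusted p 2 were higher and 4 lower. Nr0b2, the bile acid-induced repressor SHP, rose from 24.4, 44.7 and 37.5 CPM to 89.2, 69.4 and 111 (log2 fold change 1.34, edgeR's adjusted p = 0.0303). Rxra, the partner receptor of CAR and PXR, fell from 522, 558 and 468 CPM to 298, 331 and 335 (-0.68, adjusted p = 0.0449). The diets were apart in both. Without HCD replicate 1, the values were 1.34 and -0.63 and neither passed (adjusted p 0.0502 and 0.0673). Nr0b2 kept its call in 1 of the 6 fits that left out a liver and Rxra in 0, with adjusted p up to 0.112 and 0.193 over all alternatives. The most abundant regulators, Hnf4a and Cebpa, had log2 fold changes of -0.36 and -0.19 (edgeR's adjusted p 0.279 and 0.576), and Cebpa -0.075 without HCD replicate 1. The receptors themselves, chosen after their values were seen, gave 0.50 for Nr1i2 (PXR, edgeR's adjusted p = 0.133) and 0.69 for Nr1i3 (CAR, adjusted p = 0.416, and 0.18 without HCD replicate 1). Ahr had 39.8, 33.98 and 33.7 CPM with RD and 39.98, 17.6 and 18.3 with HCD. Its log2 fold change did not pass with all 6 livers (-0.50, edgeR's adjusted p = 0.386), and it passed without HCD replicate 1, at -0.998 (adjusted p = 0.0241). The median of the 18 was -0.27, or -0.35 without HCD replicate 1.

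Of 12 CAR and PXR target genes outside P450, 11 were tested. By unadjusted p 3 were higher and 0 lower, and DESeq2 called 3 higher (Gstm3, and Abcc3 and Gadd45b, named after their values were seen) and 0 lower. edgeR called 1, Gstm3, a glutathione transferase, which rose (log2 fold change 1.82, edgeR's adjusted p = 0.0473, and 2.12 without HCD replicate 1, adjusted p = 0.0212). With any of the other 5 livers left out, Gstm3 did not pass, and its adjusted p reached 0.193 over all alternatives. The most abundant of them, Aldh1a1 and Ces2a, had 0.22 and 0.56 and did not pass. Ces2a, a carboxylesterase, had 349 CPM in HCD replicate 1, below all other livers, and without it the log2 fold change was 0.86 (edgeR's adjusted p = 0.0548). Of the 11, 10 had a log2 fold change above 0, with a median of 0.51, or 0.33 without HCD replicate 1. Their summed FPKM was 1084 to 1310 with RD and 1514 to 2156 with HCD.

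The genes that supply P450 enzymes with electrons and haem gave no call in edgeR. Of 6 electron partners, 4 passed by unadjusted p, 2 in each direction, and DESeq2 called 2 in each direction too. Por, the reductase that all microsomal P450 enzymes use, had 186, 164 and 261 CPM with RD and 533, 385 and 243 with HCD. It overlapped, and its log2 fold change was 0.93 (95% interval 0.26 to 1.596, edgeR's adjusted p = 0.127). Cyb5r3, the cytochrome b5 reductase, was below RD in all HCD livers (log2 fold change -0.86, 95% interval -1.32 to -0.41, edgeR's adjusted p = 0.0552). Cyb5r3 passed in 1 of the 6 fits that left out a liver. Por and Cyb5r3 were chosen after their values were seen. Pgrmc1 and Cyb5a, the most abundant of the partners, had 0.064 and 0.66 (adjusted p 0.848 and 0.102), and the median of the 6 was 0.056, or 0.031 without HCD replicate 1. Of 10 genes of haem synthesis and breakdown, 4 passed by unadjusted p, 2 in each direction, and DESeq2 called 0. Alas1, the rate-limiting enzyme of haem synthesis, also chosen after its values were seen, had 654, 498 and 359 CPM with RD and 132, 305 and 119 with HCD. These did not overlap, and the log2 fold change of -1.44 (95% interval -2.31 to -0.58, edgeR's adjusted p = 0.0803) did not pass, except in 1 of the 6 fits that left out a liver. Alad and Fech, the most abundant, had 0.50 and -0.055, and the median of the 10 was -0.088, or -0.027 without HCD replicate 1.

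**Figure D5:**
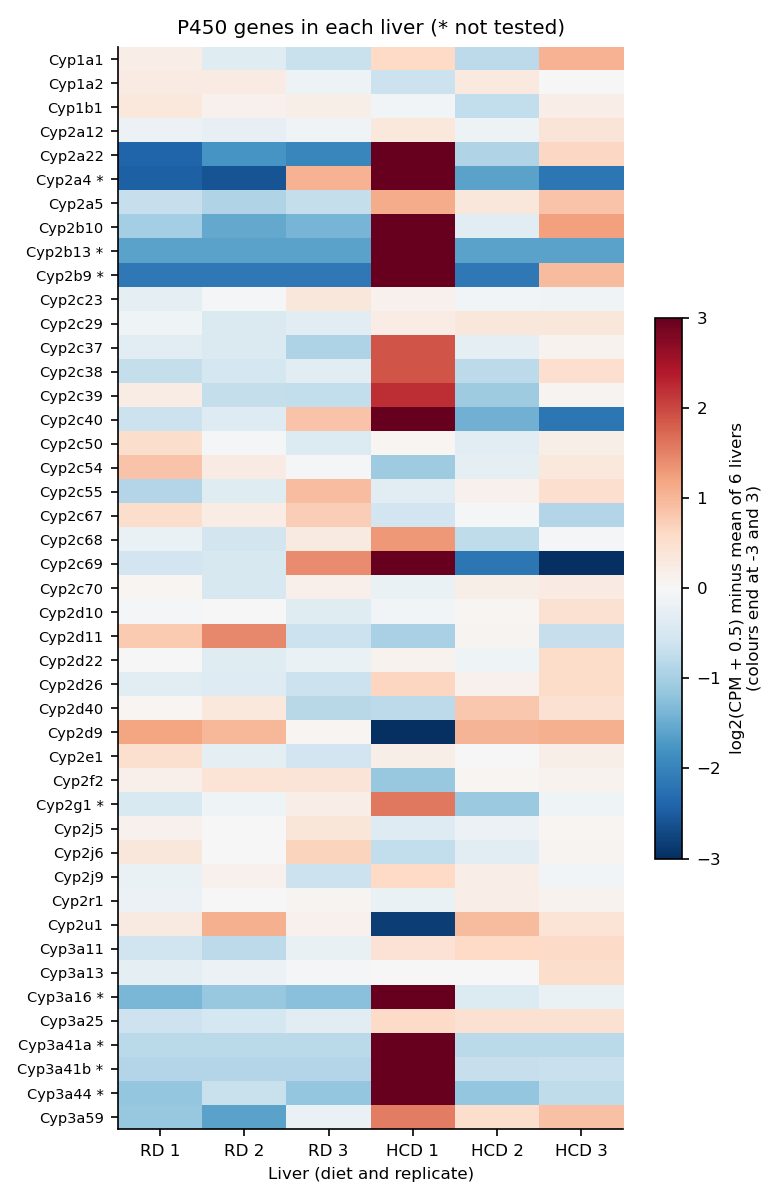
log2(CPM + 0.5) of each of the 45 P450 genes in each of the 6 livers, minus the mean of the 6, with colours ending at -3 and 3; an asterisk marks genes not tested. The red column of HCD replicate 1 over the genes that are highest in it stands out from the other 5 columns, while Cyp2a5, Cyp3a11 and Cyp3a25 are pale red in all 3 HCD livers.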

How the data were processed

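Liver RNA of 3 RD-fed and 3 HCD-fed mice was sequenced by Novogene. The authors deposited whole-number read counts per gene, not normalized, and FPKM, which divide counts by gene length and by a library total not given in the sources used here. The submitters' processing notes name STAR, HTSeq, DESeq2, edgeR and the build GRCm39, without versions or roles. Yet for 95.0% to 95.1% of genes, the length that the FPKM imply was within 0.1% of the exon length in GENCODE M21 on GRCm38, so coordinates are given only for promoter windows, on GRCm38.p6, and none for the measured genes. Strand and library kit are not given either. The tables' columns of the authors' own fold changes and p-values were not used.

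Diets came from the sample titles. The genes, gene lists and tests were chosen with earlier results of these data known. Counts were fitted in R 4.3.3 with edgeR 4.0.16 (filterByExpr by diet, TMM factors 0.886 to 1.07, quasi-likelihood test of HCD against RD, Benjamini-Hochberg over 13105 genes holding 99.4% to 99.9% of counts). A gene was called when its adjusted p was below 0.05, whatever the size of its fold change. Depth was 13771630 to 23129576 counts, and the spread between livers (biological coefficient of variation 27.8%) exceeded counting error. The p-values set the diet difference against the spread between these livers, estimated with information shared over genes. In the HCD group that spread includes the distance of HCD replicate 1 from the other livers, which was wide for genes such as Cyp2d9. An exact two-sided permutation test of 3 livers against 3 gives no p under 0.10, so none is printed.

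Named genes were every called member, the 2 most abundant of each subfamily, the 5 largest rises and falls of at least 5 CPM, the members on the sex and zone lists, and of other lists the called and the 2 most abundant genes. Aldh3a1, of the AhR list, was not analysed here. Shared transcript sequence was found with blastn 2.17.0 on M21 transcripts, and promoters came from the RefSeq table of GRCm38.p6. Alternatives were DESeq2 1.42.0, RLE factors, library sizes alone, no low-count filter, a minimum mean of 50 counts, limma 3.58.1 with a trend on log-scale FPKM after adding 1 or 0.1, a replicate block, removal of a gene-length trend, stricter and looser thresholds, and each liver left out.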

Additional observations from a re-analysis of the deposited data

How the results depend on the processing

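The 5 members called higher became 12 without a filter on low counts, adding Cyp2a22, Cyp2b10, Cyp2b9, Cyp2b13, Cyp3a16, Cyp3a41b and Cyp3a44. Over all genes, 364 were then called higher. Apart from Cyp2b10, the added genes had at most 53 counts in any liver but HCD replicate 1, which held 290 to 8805. The 5 became 3 with limma on FPKM after adding 1 or 0.1, and 3 with the length trend removed. They became 0 at an adjusted p under 0.01, 10 by unadjusted p and 0 to 7 when 1 liver was left out. The 0 called lower became 1 with DESeq2, without a filter and with the length trend removed, 2 by unadjusted p, and 0 to 1 when 1 liver was left out. Over all genes, the 428 calls (255 higher, 173 lower) were 995 (554 and 441) with DESeq2, 649 (285 lower) without a filter, 251 (138 and 113) with the length trend removed, 40 (18 and 22) at an adjusted p under 0.01, 2739 (1453 and 1286) by unadjusted p and 36 to 335 (15 to 200 and 21 to 141) when 1 liver was left out. Library sizes alone gave 158 higher and limma on FPKM after adding 0.1 gave 115 lower. Deviations from the diet means correlated at -0.0838, 0.119 and -0.0298 between same-numbered livers and at -0.143 to 0.147 between others. With 3 livers per diet, this cannot settle whether the replicate numbers pair the livers. With the number as a block, the calls were 136 over all genes (71 and 65) and 1 among members.

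Of 388 values of 26 named members under alternatives, 337 kept direction and side of the threshold, 29 lost the call, 11 gained one and 11 turned in direction. Beside leaving out livers, Cyp3a59 lost its call with limma on FPKM (adjusted p 0.0519 after adding 1 and 0.0566 after adding 0.1), the length trend removed (0.0529) and the block (0.0537). Cyp2d26 lost it under the same settings (0.0691, 0.0722, 0.0948 and 0.0821) and with library sizes alone (0.0726). Cyp3a11 and Cyp3a25 lost it under the block (0.0619 and 0.0558). With 1 liver left out, the log2 fold change ranged from -0.41 to 0.028 for Cyp1a2, -0.11 to 2.55 for Cyp2c39, -2.03 to 2.87 for Cyp2c40, -4.09 to 4.08 for Cyp2c69, -0.78 to 0.23 for Cyp2d9 and -1.04 to 0.16 for Cyp2u1, and it turned in these 6 without HCD replicate 1. It ranged from -0.023 to 0.28 for Cyp2c70 and turned without RD replicate 2, and from -0.035 to 0.53 for Cyp2e1, where it turned without RD replicate 3. The block gave -0.18 for Cyp2c40 and -0.48 for Cyp2c69, and limma on FPKM after adding 0.1 gave -0.81 for Cyp2c69. The cause was not tested. The Cyp2b log2 ratio was 2.62 to 8.32 when 1 liver was left out. The log2 ratios of the sums over Cyp2a, Cyp2b, Cyp2c, Cyp2d, Cyp2e, Cyp2j and Cyp3a kept their sign with every liver left out and in CPM. A minimum of 30 or 120 summed counts gave 46 or 43 genes. With 3 livers per diet, a member that missed the threshold is not shown to be alike in both.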
